A study of Arabidopsis thaliana with 31 samples.

Results

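The nuclear genes of the photosystems and of their light-harvesting antennae were followed across 31 RNA-seq libraries of Arabidopsis thaliana. The set holds 42 of the 32833 genes listed, taken by their gene identifiers: 6 LHCA and 15 LHCB antenna genes, and 12 PSA and 9 PSB subunit genes of photosystem I and photosystem II. Antenna and core thus have 21 genes each. Total RNA came from seedlings harvested 12 days after germination, grown, after 4 days of stratification, on soil in long days at about 21 °C. Experiment A had 2 libraries of the wild type Columbia-0 (Col-0) and 3 for each mutant, which were gcn5-7, arp6-1 and their combination, gcn5-7 arp6-1. Experiment B had 5 libraries per genotype. Its wild type was again Col-0, and its mutants were gcn5-7, the double mutant nrp1-1 nrp2-2, and a triple mutant of all 3 alleles, gcn5-7 nrp1-1 nrp2-2. The enzyme GCN5 acetylates histones. ARP6 is a subunit of SWR1, the complex that exchanges H2A.Z into nucleosomes. The NAP1-related proteins NRP1 and NRP2 act as chaperones of histones. Values are TPM scaled by TMM, a level per kilobase of transcript, and the tables of A and B were normalised separately. RNA was taken from seedlings in bulk, so fewer green cells and less RNA per cell cannot be told apart.

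Light is absorbed by chlorophyll bound to LHCA proteins around photosystem I and to LHCB proteins around photosystem II, and passed to reaction centres whose largest subunits are made in the chloroplast. The nucleus supplies the antenna proteins and the smaller core subunits, among them the docking and ferredoxin-binding subunits of photosystem I and the oxygen-evolving proteins PSBO, PSBP and PSBQ of photosystem II. These are among the most abundant messages of a green leaf. They rise with light and with chloroplast development, and the GLK and GATA (GNC, CGA1) factors are known activators of many of them.

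Libraries of B held 10.3 to 16.8 M recovered reads and those of A 38.3 to 39.6 M, so counting error was small beside the spread between libraries. Nothing in the labels tells if a replicate was its own batch of plants. The p-values therefore speak only of the spread among these libraries, which may be technical. In A, 3 libraries stood apart (the first replicate of each genotype but the double mutant), with column sums of 1388374 to 2078175 against 715741 to 1098191. In B, gcn5-7 replicate 1 gave the lowest of all 20 values for 42 of 42 members, and nrp1-1 nrp2-2 replicate 2 the highest for 40. Transcripts of ARP6 and NRP2 were near 0 in the mutants labelled for them, NRP1 was lower on average, and GCN5 RNA overlapped between gcn5-7 and Col-0, so that label has no RNA check here. Of 8 root markers, only PYK10 reached the level tested, and the other 7 stayed at or below 1.07 in every Col-0 and gcn5-7 library of B, with EXPA18 listed at 0 throughout.

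The first comparison, gcn5-7 with Col-0 in B, asks how the photosystem genes respond to loss of GCN5 function. Of the 42 members, 33 fell and 0 rose (limma with Benjamini-Hochberg adjustment, threshold 0.05), where 14.7% of all 19507 genes tested were called lower and 11.6% higher. The log2 fold change was below 0 for every member, from -2.61 to -0.64, with a median of -1.16 against 0.06 over all genes tested; under quantile normalization 8 of the 42 lay above 0. By role, 5 of 6 LHCA, 9 of 15 LHCB, 11 of 12 PSA and 8 of 9 PSB genes fell. The libraries of both groups did not overlap for 30 members, all lower in gcn5-7, where 11.2% of all genes were lower without overlap. The 9 members not called were LHCA1, LHCB1.2, LHCB1.5, LHCB2.1, LHCB2.2, LHCB4.1, LHCB7, PSAE2 and PSBO1. Without gcn5-7 replicate 1 the count was 21, where 9.91% of all genes were called lower. Without Col-0 replicate 1 or Col-0 replicate 2 it was 23 each time, where 10.4% and 10.5% were.

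**Figure D1:**
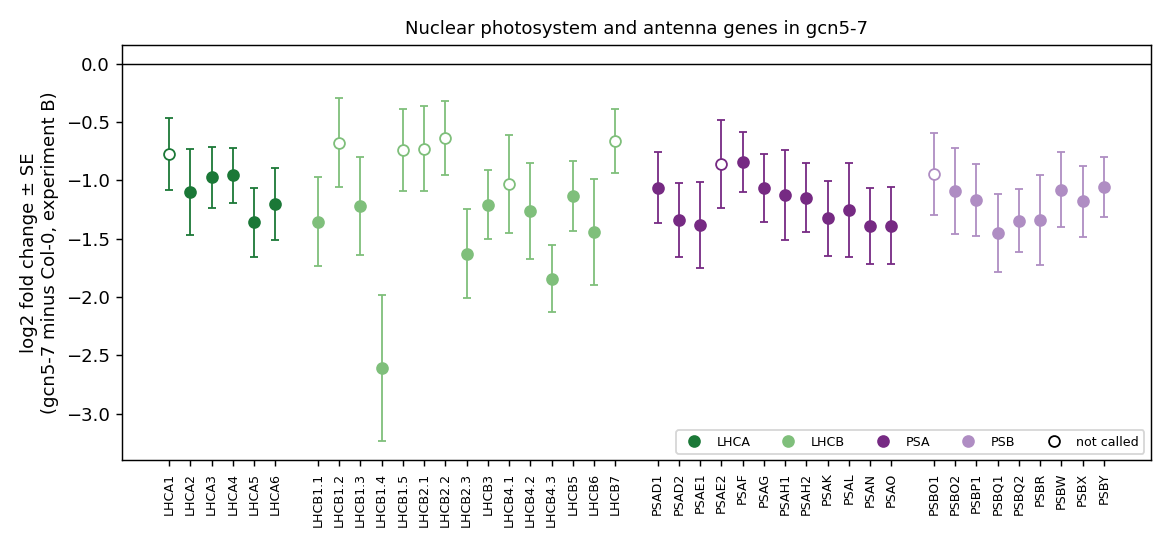
Log2 fold change with its standard error (y axis) of the 42 genes in gcn5-7 against Col-0 of experiment B (n = 5 each), in role order on the x axis, with filled points for called genes and open points for the others. Each of the 42 points lies below 0, and LHCB1.4 at -2.61 and LHCB4.3 at -1.85 lie lowest.

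Because the members moved together, their promoters were read from RefSeq TAIR10.1, while the submitters' processing notes name TAIR10. The 250 bases before the annotated gene start are shown for LHCA4 and LHCB4.3, the only members called in both gcn5-7 against Col-0 and the triple mutant against gcn5-7, and for PSAN and PSBQ2, the PSA and PSB genes of smallest adjusted p in gcn5-7. They lie at chr3:17495034-17495283, minus strand (LHCA4), chr2:16745378-16745627, plus strand (LHCB4.3), chr5:25629709-25629958, minus strand (PSAN) and chr4:2673244-2673493, minus strand (PSBQ2). Sequences run 5′ to 3′ on the gene's strand, and capitals mark 4 motifs, searched on both strands. The first motif is the G-box, spelled CACGTG. The I-box core is spelled GATAAG. The CCAAT-type motif is spelled CCAATC. The TATA box is spelled TATAAA. None of these spellings overlaps another in the sequences shown.
LHCA4: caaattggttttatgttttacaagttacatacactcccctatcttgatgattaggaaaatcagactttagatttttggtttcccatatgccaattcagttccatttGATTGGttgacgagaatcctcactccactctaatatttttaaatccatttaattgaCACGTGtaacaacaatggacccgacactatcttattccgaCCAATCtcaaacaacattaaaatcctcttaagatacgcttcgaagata
LHCB4.3: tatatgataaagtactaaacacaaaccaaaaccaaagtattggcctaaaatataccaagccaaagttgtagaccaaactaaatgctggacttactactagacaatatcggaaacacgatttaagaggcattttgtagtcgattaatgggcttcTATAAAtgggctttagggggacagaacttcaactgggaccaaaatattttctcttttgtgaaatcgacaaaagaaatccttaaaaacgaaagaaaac
PSAN: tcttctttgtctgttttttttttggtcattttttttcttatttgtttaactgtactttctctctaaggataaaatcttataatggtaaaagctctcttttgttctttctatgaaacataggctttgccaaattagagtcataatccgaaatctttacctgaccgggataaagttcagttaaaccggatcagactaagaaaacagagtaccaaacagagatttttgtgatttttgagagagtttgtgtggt
PSBQ2: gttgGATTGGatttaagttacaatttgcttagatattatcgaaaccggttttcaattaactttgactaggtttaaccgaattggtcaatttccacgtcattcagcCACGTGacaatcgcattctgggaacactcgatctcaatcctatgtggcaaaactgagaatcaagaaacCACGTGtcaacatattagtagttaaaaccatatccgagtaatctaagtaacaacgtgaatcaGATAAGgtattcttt
PSBQ2 has 2 G-boxes, an I-box core and a reversed CCAATC, LHCA4 has a G-box and CCAATC on both strands, LHCB4.3 has only a TATA box, and PSAN has none of the 4 motifs. In the window from 250 bases before to 50 after the start, 15 of 42 members (35.7%) held a G-box, against 7.68% of 27443 nuclear protein-coding genes. The I-box core stood in 17 members (40.5%, against 14.6%) and CCAATC in 15 (35.7%, against 12.3%), while the TATA box stood in 20 (47.6%, against 52.1%). CCAATC was in 11 of 21 antenna promoters and 4 of 21 core promoters, the G-box in 5 and 10, and the I-box core in 6 and 11, differences that were not tested. These are letter matches, and a link between motifs and fold changes was not tested.

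Of the LHCA genes, whose products form the antenna belt of photosystem I, LHCA5 had the smallest adjusted p. LHCA5 (AT1G45474), a minor antenna protein that links photosystem I to the NDH complex, measured 522.1, 459.2, 238.4, 358.5 and 316.5 in Col-0 and 83.7, 169.1, 135.3, 205.4 and 144.9 in gcn5-7, replicates 1 to 5. The groups did not overlap, and the log2 fold change was -1.36 ± 0.30 (SE, adjusted p = 0.00335). LHCA6 (AT1G19150), its partner in the same NDH linkage, measured 400.9, 319.2, 188.3, 262.7 and 242.3 in Col-0 and 61.5, 128.3, 123.5, 186.6 and 124.8 in gcn5-7 (-1.21 ± 0.31, adjusted p = 0.0089). LHCA4 (AT3G47470), a main belt subunit, stood at 5513, 4287, 3377, 3181 and 3124 in Col-0 and at 1257, 2150, 1999, 2741 and 1927 in gcn5-7. Every Col-0 library was above every gcn5-7 library, with a log2 fold change of -0.96 ± 0.24 (adjusted p = 0.00769). Under quantile normalization the change of LHCA4 was 0.05, and those of LHCA1, LHCB1.2 and PSBO1 were above 0 as well. LHCA1 (AT3G54890), another belt subunit, gave 3502, 2772, 1883, 1899 and 1986 in Col-0 against 835.9, 1574, 1287, 1997 and 1398 in gcn5-7. Here gcn5-7 replicate 4 reached into the Col-0 range, and LHCA1 missed the threshold (-0.77 ± 0.31, adjusted p = 0.067). LHCA3 fell by 0.98 on the log2 scale, and LHCA2 was the fifth gene of this group to fall.

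The LHCB genes encode the major trimeric antenna LHCII (LHCB1, LHCB2, LHCB3), the minor antenna proteins next to the photosystem II core (LHCB4, LHCB5, LHCB6) and the rare LHCB7. On the per-length scale LHCB1.3 had the highest level of all members in Col-0 of B, at 20500 ± 8467 (SD, n = 5), and every Col-0 library of it (13448 to 30007) was above every Col-0 library of the next gene, PSBR (8067 ± 3214, up to 12582). PSBR and LHCB1.1 (7729 ± 2859) did not differ beyond their spread. The lowest was LHCB7, at 57.5 ± 13.0, below every library of LHCA6 (282.7 ± 81.0).

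LHCB4.3 (AT2G40100), the least expressed LHCB4 copy, measured 622.3, 337.3, 283.5, 399.7 and 296.9 in Col-0 and 55.7, 102.6, 125.7, 148.9 and 106.0 in gcn5-7. The gap between groups was wide, and the change was -1.85 ± 0.29 (adjusted p = 0.000256), the smallest adjusted p of the 42 genes. LHCB1.4 (AT2G34430) had the largest change, from 1180, 2368, 842.3, 642.0 and 993.6 in Col-0 to 40.9, 589.8, 113.5, 286.7 and 215.4 in gcn5-7 (-2.61 ± 0.62, adjusted p = 0.00619). Its standard error was also the largest of the members, with gcn5-7 replicate 1 far below the others and replicate 2 just under the lowest Col-0 library. LHCB2.3 (AT3G27690) gave 836.7, 863.2, 525.0, 519.3 and 424.1 in Col-0 and 75.2, 329.0, 159.6, 371.8 and 195.8 in gcn5-7 (-1.63 ± 0.38, adjusted p = 0.00566), without overlap. LHCB1.2 (AT1G29910) was at the other end, with 4549, 3941, 2255, 2111 and 2165 in Col-0 against 1275, 2966, 1551, 1975 and 1523 in gcn5-7. Replicate 2 of gcn5-7 exceeded 3 Col-0 libraries of LHCB1.2, whose change was -0.68 ± 0.38 (adjusted p = 0.187). LHCB3, LHCB5 and LHCB6 fell by 1.21, 1.14 and 1.45 on the log2 scale, LHCB1.1 by 1.36, LHCB1.3 by 1.22 and LHCB4.2 by 1.26. LHCB4.1 (-1.03), LHCB1.5 (-0.74), LHCB2.1 (-0.73), LHCB7 (-0.66) and LHCB2.2 (-0.64) were not called, with adjusted p from 0.074 to 0.137.

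Of the nuclear subunits of photosystem I, PSAN (AT5G64040), a lumenal subunit at the plastocyanin side, went from 4053, 3637, 1767, 2478 and 2360 in Col-0 to 524.8, 1328, 913.0, 1590 and 1194 in gcn5-7 (-1.40 ± 0.33, adjusted p = 0.00539). No gcn5-7 library of PSAN reached the Col-0 range. PSAO (AT1G08380), which takes part in docking mobile LHCII, measured 3757, 3241, 1894, 1956 and 2193 in Col-0 and 518.8, 1289, 877.0, 1311 and 1040 in gcn5-7 (-1.39 ± 0.33, adjusted p = 0.00568). PSAD2 (AT1G03130), a copy of the ferredoxin-docking subunit, measured 958.7, 1067, 651.5, 581.4 and 599.1 against 160.5, 448.8, 306.8, 348.1 and 287.2 (-1.34 ± 0.32, adjusted p = 0.00574), again without overlap. PSAE2 (AT2G20260), also at the ferredoxin side, gave 1531, 1271, 684.5, 713.9 and 643.2 in Col-0 and 314.2, 714.3, 489.0, 579.6 and 479.9 in gcn5-7. Replicate 2 of gcn5-7 lay above 3 Col-0 libraries of PSAE2, which was not called (-0.86 ± 0.38, adjusted p = 0.0932). The other 8 PSA genes fell by 0.85 (PSAF, the plastocyanin-docking subunit) to 1.38 (PSAE1) on the log2 scale. PSAK, PSAL, PSAG, PSAH1, PSAH2 and PSAD1 lay between these.

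Of the photosystem II genes, the extrinsic oxygen-evolving proteins gave both the smallest and the largest adjusted p. PSBQ2 (AT4G05180) stood at 1712, 2001, 1126, 1497 and 1518 in Col-0 and at 304.1, 826.9, 478.0, 934.3 and 730.2 in gcn5-7 (-1.35 ± 0.27, adjusted p = 0.00187). PSBQ1 (AT4G21280) went from 5154, 4063, 2253, 3184 and 2875 to 682.5, 1417, 1127, 1809 and 1414 (-1.45 ± 0.33, adjusted p = 0.00491). Neither gene had overlapping groups. PSBY (AT1G67740), a small membrane subunit, gave 1677, 1571, 1126, 1060 and 1127 in Col-0 and 457.9, 817.4, 650.4, 646.1 and 574.6 in gcn5-7 (-1.06 ± 0.26, adjusted p = 0.007). PSBO1 (AT5G66570), the main manganese-stabilising protein, gave 7046, 6485, 3412, 3236 and 3262 in Col-0 and 1488, 3118, 2278, 2707 and 2150 in gcn5-7. Its groups did not overlap either, but Col-0 replicates 1 and 2 were far above replicates 3 to 5, and PSBO1 just missed the threshold (-0.95 ± 0.35, adjusted p = 0.0506). PSBO2, PSBP1, PSBR, PSBW and PSBX fell by 1.08 to 1.34 on the log2 scale.

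**Figure D2:**
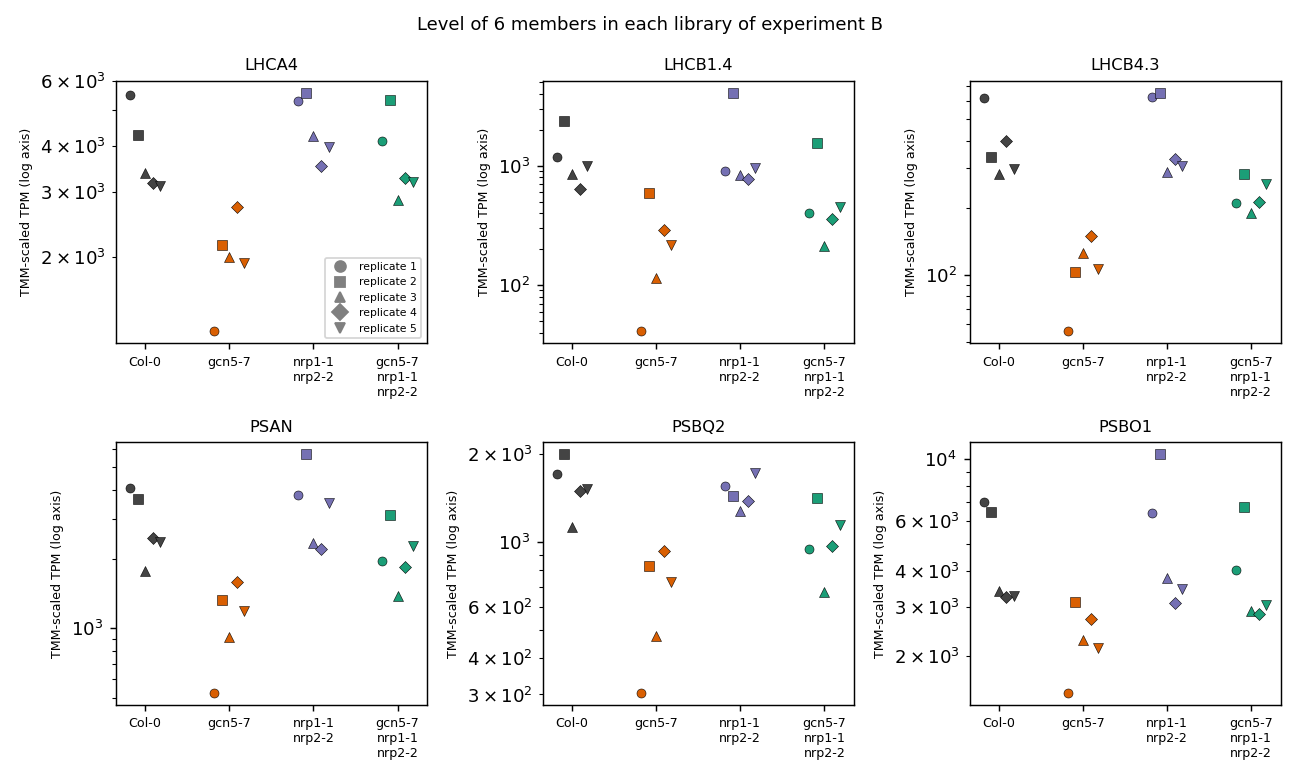
TMM-scaled TPM on a log axis (y) of 6 genes in each library of experiment B, by genotype (x), with 1 point per library and the marker shape giving the replicate. LHCB4.3 lies at 55.7 to 148.9 in gcn5-7 and at 283.5 to 622.3 in Col-0, and replicate 1 is the lowest gcn5-7 library in each panel.

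The size of the gcn5-7 change differed between replicates. Within replicates 1 and 2 alone the median log2 change was -1.86, with 34 members lower. Within replicates 3 to 5 alone it was -0.73, with 28 lower, where 7.5% of all genes were called lower, against 11.1% within replicates 1 and 2. All 42 members were below 0 in both subsets.

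Antenna and core genes were compared next. In gcn5-7 against Col-0 of B the median log2 fold change was -1.14 over 21 antenna genes and -1.17 over 21 core genes. With quantile normalization, which does more than multiply a library by a common factor, these medians were -0.18 and -0.37. The mean log2 level of antenna genes minus that of core genes is not changed by a common factor for a library. It was -0.27 ± 0.11 in Col-0, -0.26 ± 0.08 in gcn5-7, -0.18 ± 0.11 in the triple mutant and -0.26 ± 0.10 in nrp1-1 nrp2-2 (SD, n = 5). The ranges of the 4 genotypes overlapped. Antenna genes took 53.4 to 60.3% of the members' summed signal in Col-0 and 55.4 to 60.6% in gcn5-7, again overlapping. The changes ran from -2.61 to -0.64 for antenna and from -1.45 to -0.85 for core genes, with LHCB1.4, whose standard error was the largest, at the low end. Of the core genes 19 of 21 were called and of the antenna genes 14 of 21. Neither difference was tested.

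Since these transcripts are abundant, the scaling between libraries was checked on them. In B the 42 members together held 13.1 ± 2.05% of the column sum in Col-0 (11.3 to 15.6%) and 8.03 ± 1.94% in gcn5-7 (5.01 to 10%), without overlap. The share was 11.9 ± 2.35% in the triple mutant and 14.0 ± 3.25% in nrp1-1 nrp2-2, both overlapping Col-0. Column sums themselves were lower in every gcn5-7 library (704073 to 821849) than in every Col-0 library (852074 to 1315398). With each library set to an equal sum, the median change of the members was -0.75 and that of all genes 0.41, and 34 members were called lower, where 7.76% of all genes were. With the members left out of those sums the medians were -0.83 and 0.34, with 34 called and 8.94% of all genes. Scaling by median-of-ratios gave -1.18 and 0.04, with 31 called and 14.4% of all genes. All 42 members stayed below 0 under these 3 scalings. Quantile normalization, which sets the highest values of all libraries equal, gave a median of -0.37 with 13 members called lower, where 16.5% of all genes were.

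**Figure D3:**
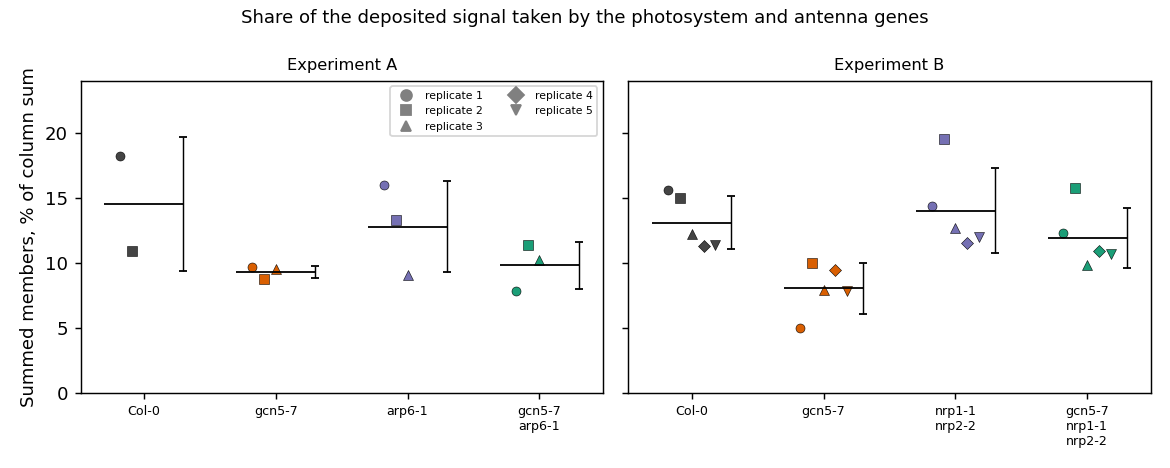
Summed level of the photosystem and antenna genes as a percentage of each library's column sum (y axis), by genotype (x axis) in experiments A and B, with 1 point per library, the mean as a line and the SD as a bar. In B the 5 gcn5-7 libraries (5.01 to 10%) lie below the 5 Col-0 libraries (11.3 to 15.6%), and nrp1-1 nrp2-2 replicate 2 is highest at 19.5%.

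Several members are copies of the same subunit, and the ratio of copies within a library is free of a scaling factor common to its genes. LHCB1.2 over LHCB1.3 rose from between -2.90 and -2.64 (log2) in Col-0 to between -2.41 and -1.76 in gcn5-7 of B, and PSAE2 over PSAE1 from between -2.12 and -1.83 to between -1.59 and -1.09. PSAD2 over PSAD1 moved the other way, from between -1.26 and -1.12 to between -1.73 and -1.36, as did LHCB4.2 over LHCB4.1, from between -1.03 and -0.86 to between -1.26 and -1.09. None of these 4 ratios overlapped between the groups of B, and they are given without a test. In A the LHCB1.2 ratio (-2.58 to -1.84 in Col-0, -2.36 to -1.42 in gcn5-7) and the PSAE2 ratio (-0.26 to 0.57 and 0.23 to 1.07) did overlap, while the PSAD2 and LHCB4.2 ratios did not and were lower in gcn5-7. The reads of PSAE1 in B cannot be told apart from those of a gene on the opposite strand, described next. In the triple mutant the PSAE2 ratio, at -1.99 to -1.65, overlapped Col-0, and the LHCB1.2 ratio, at -2.84 to -2.35, overlapped both Col-0 and gcn5-7. LHCB1.4 over LHCB1.3 (-4.67 to -3.63 against -6.69 to -4.47), LHCB2.3 over LHCB2.1, LHCB4.3 over LHCB4.1, PSBO2 over PSBO1, PSBQ2 over PSBQ1 and PSAH1 over PSAH2 overlapped. LHCB1.1, LHCB1.2 and LHCB1.3 share 95.6 to 96.4% of their coding bases, with identical stretches of up to 119 bases, and LHCB2.1 and LHCB2.2 share 92.9%. LHCB1.4 and LHCB1.5 share 92.5%, with a stretch of 122 identical bases. How reads shared by such copies were assigned is not given in the sources used here, so the split among LHCB1 and among LHCB2 copies is uncertain. PSAD1 with PSAD2 (88.0%), PSAH1 with PSAH2 (87.0%), PSBO1 with PSBO2 (83.8%), LHCB4.1 with LHCB4.2 (81.9%), PSBQ1 with PSBQ2 (80%) and PSAE1 with PSAE2 (79.5%) have no identical stretch above 35 bases.

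**Figure D4:**
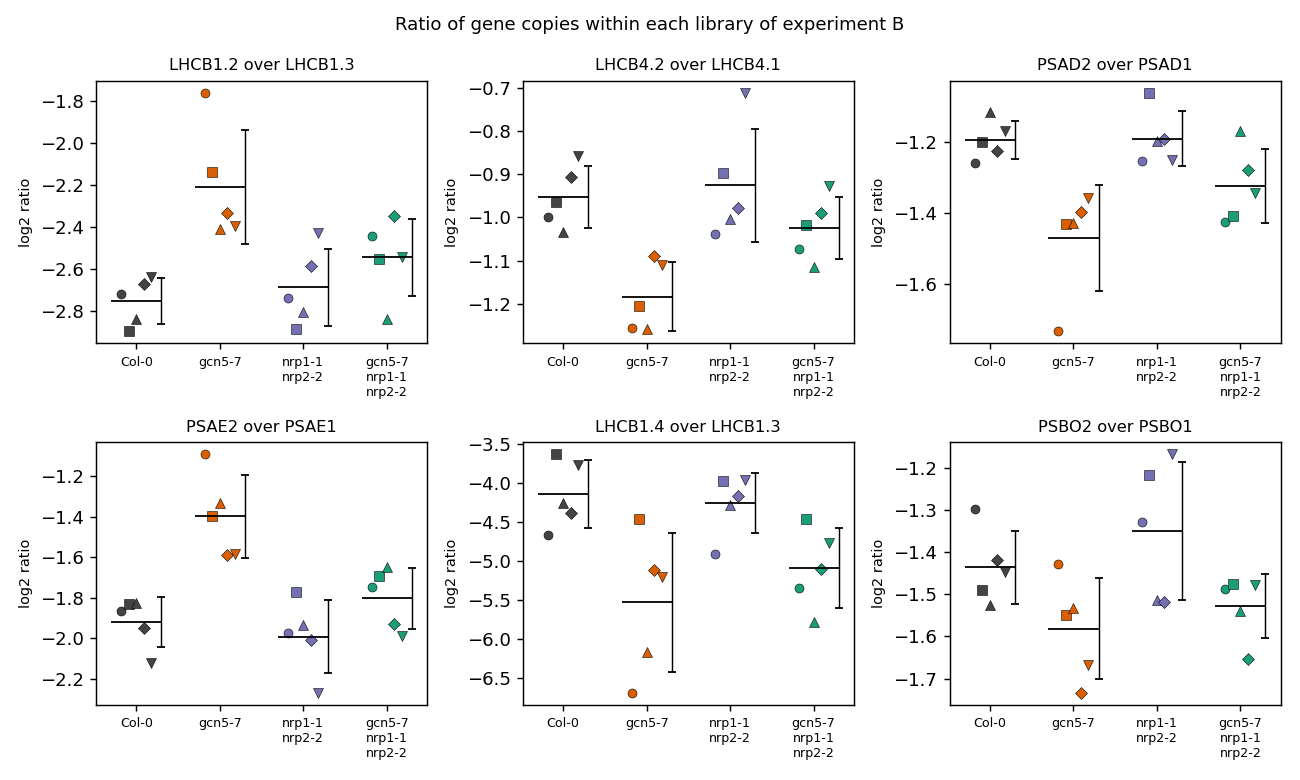
Log2 ratio of a pair of gene copies (y axis) in each library of experiment B, by genotype (x axis), with 1 point per library (circle, square, triangle, diamond and inverted triangle for replicates 1 to 5), the mean as a line and the SD as a bar. LHCB1.2 over LHCB1.3, LHCB4.2 over LHCB4.1, PSAD2 over PSAD1 and PSAE2 over PSAE1 do not overlap between Col-0 and gcn5-7, while LHCB1.4 over LHCB1.3 and PSBO2 over PSBO1 do.

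Neighbouring genes on the opposite strand touch some members, and strand handling is not given in the sources used here. The lncRNA AT2G08665 covers all 1045 exon bases of LHCB1.5. In B it measured 2487 to 15712, within -0.08 to 0.06 (log2) of LHCB1.5 in each of the 20 libraries, and in A both were listed at 0 in all 11 libraries. LHCB1.5 was therefore not tested in A, where 41 members remain. A total of 44 genes were at 0 throughout A and at 100 or more throughout B, and 0 genes the other way. PSAG shares 479 of its 780 exon bases with AT1G55673, which was 917 to 7673 in B and 0 in A, while PSAE1 shares 263 of 798 bases with AT4G28755, at 1713 to 24292 in B and at most 1.87 in A. PSAH1 shares 693 of 1300 bases with AT3G16130, at 105 to 1280 in B and at most 0.21 in A. LHCB2.3 shares 595 of 1465 bases with AT3G27700, at 12.9 to 69.7 in B. LHCB6 shares 143 of 1204 bases with the lncRNA AT1G05207, at 1203 to 21278 in B and 8.95 to 85.0 in A. In B the reads of such a member and of its opposite partner cannot be told apart, and levels are not compared between the tables.

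Other genes of the photosynthetic membrane were counted from lists chosen by function. In gcn5-7 against Col-0 of B, 15 of 20 other nuclear thylakoid genes fell and 0 rose, with a median of -1.06. Of all genes tested, 14.7% were called lower and 11.6% higher. AT2G26500 went from 1457 ± 497.2 to 516.9 ± 146.0 (-1.48 ± 0.34, adjusted p = 0.0048) and ATPD, the delta subunit of the chloroplast ATP synthase, from 1567 ± 324.1 to 789.4 ± 220.4 (-1.01 ± 0.23, adjusted p = 0.00487). Of 5 genes that insert antenna proteins into the membrane, 3 fell, where 14.7% of all genes were called lower. CPFTSY, the receptor of the chloroplast signal recognition particle, fell from 41.6 ± 2.97 to 22.6 ± 3.56 (-0.86 ± 0.14, adjusted p = 0.000332), and ALB3, the insertase, from 223.3 ± 30.1 to 125.0 ± 27.4 (-0.85 ± 0.25, adjusted p = 0.0198). CPSRP43, which carries LHC proteins through the stroma, was the third (-1.18).

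Of 10 regulators tested, 3 fell and 1 rose, against 14.7% and 11.6% of all genes. GLK1, an activator of antenna and chlorophyll genes, went from 195.3 ± 60.4 to 107.0 ± 8.48 (-0.82 ± 0.25, adjusted p = 0.0215) and GNC, a GATA factor of chloroplast development, from 109.0 ± 31.6 to 61.3 ± 17.6. CGA1, the sister of GNC, was the third to fall (-1.04 ± 0.36, adjusted p = 0.0402), and PIF3, a repressor of greening in the dark, rose by 0.67 from a low level (2.82 ± 0.89 to 5.08 ± 1.35). HY5 (0.01, adjusted p = 0.98) and GLK2 (-0.38, adjusted p = 0.394) were not called. Of 20 listed genes of the chloroplast genome, 3 fell and 0 rose, a share near that of all genes (14.7% lower), with a median of -0.89. Together these 20 held only 0.0306 ± 0.0081% of the column sum in Col-0 and 0.0174 ± 0.0068% in gcn5-7 (SD). Their changes thus rest on a very small part of the signal. ATCG00220 went from 74.9 ± 25.7 to 26.4 ± 13.8 (-1.57 ± 0.39, adjusted p = 0.00802) and ATCG00080 from 57.2 ± 30.1 to 21.9 ± 13.5 (-1.46 ± 0.46, adjusted p = 0.027). The median over all genes tested was 0.06. The root-expressed PYK10 rose, from 48.0 ± 11.3 to 120.4 ± 51.4 (1.25 ± 0.30, adjusted p = 0.00691), and its part in these counts was not tested.

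The double mutant nrp1-1 nrp2-2 asks whether loss of the histone chaperones alone moves these genes. Of the 42 members, 0 were called, where 0.297% of all genes were called higher and 0.0923% lower by limma, and 0 reached an unadjusted p of 0.05. The changes ran from -0.07 to 0.42 with a median of 0.22, and 41 lay above 0 (31 with equal sums and 18 with quantile normalization). Without nrp1-1 nrp2-2 replicate 2 the median was -0.02, with 27 below 0 and 15 above. LHCB4.3 measured 625.0, 654.5, 288.8, 330.2 and 307.6, and LHCA4 5299, 5571, 4254, 3528 and 3985, both overlapping the Col-0 range. For both, replicates 1 and 2 were the highest.

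In the triple mutant gcn5-7 nrp1-1 nrp2-2, 0 members were called against Col-0, where 1.28% of all genes were called higher and 1.15% lower by limma, and 2 were lower at an unadjusted p of 0.05. The median change was -0.31, with 40 below 0. It was -0.14 without Col-0 replicate 1, -0.18 without triple-mutant replicate 3, -0.49 without triple-mutant replicate 2 and -0.08 with quantile normalization, when 28 lay below 0. Replicate numbers were taken as pairs here, by a correlation rule and not by the labels. With a replicate block 1 member, LHCB1.4 (402.3, 1536, 214.1, 353.7 and 452.5; -1.23 ± 0.62 without the block), was called lower, where 4.69% of all genes were. Against nrp1-1 nrp2-2, which asks what gcn5-7 adds without the chaperones, all 42 changes lay below 0 with a median of -0.54 (38 with equal sums and 26 with quantile normalization). Without nrp1-1 nrp2-2 replicate 2 it was -0.29, with 2 above 0. In this comparison 0 were called by limma, where 0.61% of all genes were called lower and 0.103% higher, and 6 were lower at an unadjusted p of 0.05. The block again added LHCB1.4, where 4.23% of all genes were called lower.

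The triple mutant against gcn5-7 asks what loss of NRP1 and NRP2 does where GCN5 is already mutated. All 42 members lay above 0, from 0.54 to 1.39 with a median of 0.83 (38 of 42 under quantile normalization). Of these, 33 were higher at an unadjusted p of 0.05, a count given without the share over all genes. After adjustment 2 rose, where 2.08% of all genes were called higher and 1.14% lower. Groups did not overlap for 7 members, all higher, where 4.02% of all genes were higher without overlap. LHCA4 rose to 4127, 5323, 2848, 3281 and 3197 (0.90 ± 0.24, adjusted p = 0.0436), with every library above all gcn5-7 libraries. LHCB4.3 rose to 209.0, 283.2, 189.1, 213.1 and 256.5 (1.14 ± 0.29, adjusted p = 0.0363), above every gcn5-7 library and below every Col-0 library. Without single libraries the count ranged from 0 to 10, and it was 0 without any of gcn5-7 replicates 1, 2, 3 and 5 and of triple-mutant replicates 1, 2, 4 and 5. The 10 came without triple-mutant replicate 3, where 994 of 19507 genes were called higher. With the replicate block 36 members were higher, where 13.6% of all genes were, and with a term for replicates 1 and 2 against 3 to 5 the count was 18, where 6.66% were. PSAN (1952, 3100, 1379, 1852 and 2280; 0.97 ± 0.33, adjusted p = 0.1 without the block) and PSBQ2 (948.4, 1414, 675.8, 969.3 and 1143; 0.72 ± 0.27, adjusted p = 0.137) gave the core counterpart, both overlapping gcn5-7. Within replicates 1 and 2 the median was 1.48 and within replicates 3 to 5 it was 0.43, with 0 called in each.

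The interaction tests whether the change that comes with gcn5-7 was the same with and without NRP1 and NRP2. For 42 of 42 members it lay above 0 (40 under quantile normalization), from 0.28 to 1.27 with a median of 0.63, against 0.02 over all genes. The members' median ran from 0.43 to 0.87 with single libraries left out. By limma 0 members were called, where 0.0205% of all genes were called higher and 0.0205% lower, and 2 reached an unadjusted p of 0.05. These comparisons share the Col-0 and gcn5-7 libraries. Other companion genes in the triple mutant against gcn5-7 were CPFTSY, which rose (0.54 ± 0.14, adjusted p = 0.0389), and PYK10, which fell (-1.41 ± 0.30, adjusted p = 0.0163).

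Experiment A holds another set of gcn5-7 and Col-0 libraries. Of 41 members, 0 were called in gcn5-7 against Col-0 by limma, where 0.071% of all genes were called lower and as many higher, and 4 were lower at an unadjusted p of 0.05. All 41 lay below 0 (39 with equal sums and 34 with quantile normalization), with a median of -0.84. The median was -0.34 without the 3 libraries that stood apart, when 38 lay below 0. Without Col-0 replicate 1 it was -0.15, with 11 above 0, and without Col-0 replicate 2 it was -1.73, where Col-0 is 1 library each time. LHCB4.3 measured 596.0 and 281.3 in Col-0 and 288.7, 161.7 and 206.8 in gcn5-7, and PSAN 12393 and 2254 against 4622, 1722 and 2158. Replicate 1 was the highest in both genotypes, and the groups overlapped for both genes. The groups did not overlap for 10 members, all lower, where 8.08% of all genes were lower without overlap. With a term for the libraries that stood apart, LHCB4.3, PSBQ1 and PSBY were called lower, where 4.42% of all genes were. LHCB1.4 had the lowest change in A as in B (1801 and 494.8 against 144.4, 85.1 and 415.5; -2.45 ± 0.85, adjusted p = 0.392). Across the 41 genes the fold changes of A and B, which share no library, had a Pearson correlation of 0.774 and a Spearman correlation of 0.716, given as a description since genes of a library are not independent.

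**Figure D5:**
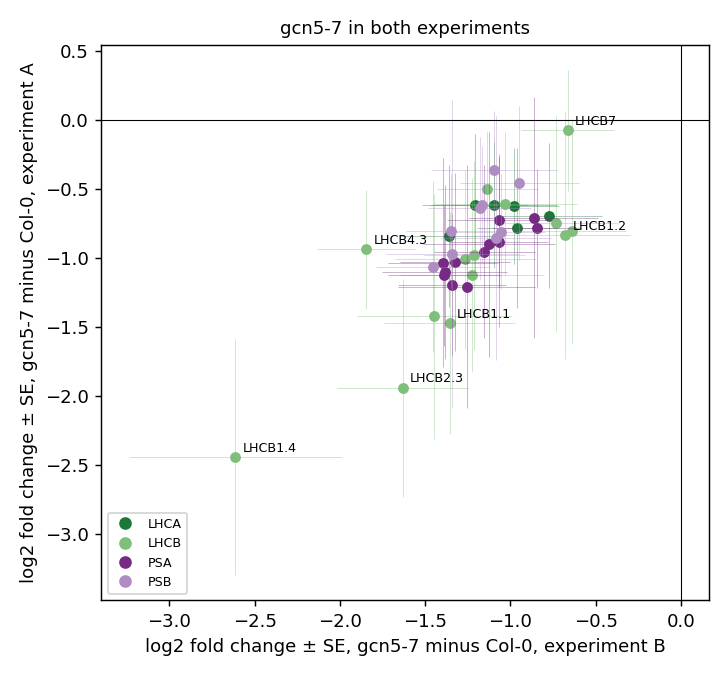
Log2 fold change with its standard error of 41 genes in gcn5-7 against Col-0 in experiment B (x axis) and in experiment A (y axis), coloured by role. All points lie below 0 on both axes, LHCB1.4 lies lowest at -2.61 and -2.45, and LHCB4.3 lies at -1.85 in B and -0.94 in A, a difference that was not tested.

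The arp6-1 mutant asks whether loss of H2A.Z deposition moves the same genes. Of 41 members, 0 were called by limma, where 0.0164% of all genes were called lower and 0 higher, and 0 reached an unadjusted p of 0.05. The median change was -0.10, and 28 lay below 0. PSBQ1 measured 8826, 4353 and 3620 in arp6-1 against 8170 and 2383 in Col-0, and LHCB4.3 521.6, 405.0 and 404.6, within the Col-0 range. The direction depended on the libraries kept, since 8 of 41 lay below 0 without the 3 that stood apart, 5 without Col-0 replicate 1 and 40 without Col-0 replicate 2.

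In the gcn5-7 arp6-1 double mutant, 0 members were called against Col-0 by limma, where 0.377% of all genes were called lower and 1.69% higher, and 4 were lower at an unadjusted p of 0.05. All 41 lay below 0 (28 with equal sums, where the median of all genes was 0.80, and 24 with quantile normalization), with a median of -1.02. The value rests on Col-0 replicate 1, since the median was -0.28 without it, while 19 were called without Col-0 replicate 2, where 15.8% of all genes were called lower. In each of these fits Col-0 is 1 library, which is assumed to vary like the other groups. The groups did not overlap for 24 members, all lower, where 21.9% of all genes were lower without overlap. Against arp6-1, which asks what gcn5-7 adds to it, 39 of 41 lay below 0, with a median of -0.95. With quantile normalization 26 lay above 0, with a median of 0.18. After adjustment 0 were called by limma, where 2.96% of all genes were called lower and 11.9% higher. At an unadjusted p of 0.05, 10 members were lower, a count given without the share over all genes. The groups did not overlap for 20 members, all lower, where 28.8% of all genes were lower without overlap. Without the 3 libraries that stood apart 16 members were called lower, where 26% of all genes were. With equal sums 22 lay below 0, where the median of all genes was 0.82. PSBQ1, at 1863, 2073 and 1822 in the double mutant, and PSAN, at 1585, 1909 and 1697 against 9990, 5334 and 2787 in arp6-1, were below every arp6-1 library.

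Against gcn5-7 the double mutant had 0 members called by limma, where 9.79% of all genes were called higher and 3.88% lower, with a median of -0.14, and 1 was lower at an unadjusted p of 0.05. The direction depended on the processing: the median was 0.21 with equal sums (29 above 0), 0.35 with quantile normalization (30 above), 0.19 with a term for the libraries that stood apart (30 above) and 0.07 without them. All genes had a median of 0.12 before these changes, 0.44 with equal sums, 0.01 with quantile normalization, 0.06 with the term and 0.10 without those libraries. The members thus lay below all genes with equal sums, as before, and above them with quantile normalization and the term. LHCB1.2 had the lowest change (392.7, 1109 and 1405 against 4693, 2490 and 2190; -1.79), and its groups did not overlap. The GCN5 by ARP6 interaction had 0 members called, where 1.26% of all genes were called higher and 0.12% lower, and 0 reached an unadjusted p of 0.05, with a median of -0.11. Its direction also varied, with a median of 0.34 with equal sums (33 above 0), 0.50 with quantile normalization, -0.80 without Col-0 replicate 1 and 0.65 without Col-0 replicate 2. For the interaction, all genes had a median of 0.06 before these changes, 0.47 with equal sums and -0.04 with quantile normalization. Of the regulators, PIF3 (1.31 ± 0.31, adjusted p = 0.0199) and PIF1 (1.41 ± 0.41, adjusted p = 0.0459) were higher in the double mutant than in gcn5-7. In A, LHCA4 gave 6507 and 3026 in Col-0, 2518, 3070 and 2210 in gcn5-7, 3798, 6286 and 2129 in arp6-1 and 1571, 3708 and 3049 in the double mutant, overlapping throughout.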

How the data were processed

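RNA-seq of 31 libraries was used as deposited. Per the submitters' processing notes, the authors' tools were fastp 0.23.4 and HISAT2 2.2.1 with TAIR10. The deposited values are a signal, TPM scaled by TMM by the authors per the table names. The sources used here do not give the read counter, strand setting or annotation. Library depth was recovered from the steps between low values, of which 98.4 to 99.6% lay within 0.05 of whole reads. Of 32833 genes, 32548 matched RefSeq TAIR10.1.

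Log2(value + 1), with a pseudocount of 1, was fitted for genes with a mean of at least 1 (18322 in A, 19507 in B). Each table had 1 limma fit over its genotypes (R 4.3.3, limma 3.58.1) with trend and robust empirical Bayes, tested on simulated data beforehand. Calls used a threshold of 0.05 on the p-value after Benjamini-Hochberg adjustment over every gene tested. Counts at an unadjusted p of 0.05 cover the members only and are given without the share over all genes. The shares of all genes beside them are after adjustment. Fold changes are on the log2(value + 1) scale. The members, companion lists and motifs were chosen with earlier results of these data known. In each role group the 3 members of smallest and the 1 of largest adjusted p in gcn5-7 of B are given by library, with all copies and any member called elsewhere. Further genes were chosen after their values were seen.

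Replicate numbers were checked as pairs by the correlation of deviations from group means. In B each pair exceeded 0.1 for nrp1-1 nrp2-2 against Col-0 and for all comparisons of the triple mutant, so blocked values stand beside those results whose call they change. For gcn5-7 against Col-0 of B replicate 1 gave 0.0185, while replicates 2 to 5 gave 0.313 to 0.601. The triple mutant against gcn5-7 gave 0.116 in replicate 1, just above the limit. The labels do not state pairs, so the limit of 0.1 decides which comparisons are taken as paired. Alternatives changed the pseudocount, filter, scaling, libraries and covariates.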

Additional observations from a re-analysis of the deposited data

Results flagged for a closer look

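In groups of 5 libraries of B, LHCB1.4 in nrp1-1 nrp2-2 had a value far from the others: replicate 2 measured 4056, against 767.7 to 947.6 in the other 4. Its gap to the nearest library took 0.874 of the group's range on the log2 scale. Of 64 groups examined, 1 stood out in this way, and chance alone would mark about 1 in 20.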

How the results depend on the processing

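For gcn5-7 against Col-0 of B, every alternative kept more members lower than higher and 0 called higher. Counts of 33 called became 13 with quantile normalization, which sets the top values of all libraries equal, and 21 to 35 when single libraries were left out. The difference of the antenna and core medians was 0.031 and became 0.193 with quantile normalization. That scaling also turned the log2 change of LHCA4 to 0.053, LHCA1 to 0.14, LHCB1.2 to 0.31 and PSBO1 to 0.029. For the triple mutant against gcn5-7, 2 members were called. The count was 5 with equal sums, 5 with sums without the members, 5 with quantile normalization, 0 with median-of-ratios scaling, 1 with only the groups compared, 18 with a term for replicates 1 and 2, 0 within replicates 1 and 2, 0 within replicates 3 to 5, and 0 to 10 with single libraries left out. Over all genes, 182 of 19642 were called higher with equal sums and 230 of 19612 with sums without the members. Of 19507 genes, 812 were with quantile normalization and 415 with only the groups compared. Without triple-mutant replicate 3, the fit that gave 10 members, 994 of 19507 genes were. In A, where 0 were called, the double mutant against arp6-1 gave 6 lower with only the groups compared, where 3262 of 18322 genes were called lower. It gave 17 lower with a term for the libraries that stood apart (3756 genes) and 16 lower without them (4768 genes). Against gcn5-7 it gave 3 with quantile normalization (2 higher, 1 lower), where 3666 of 18322 genes were called. With only the groups compared it gave 1, lower, where 4913 genes were called. With the term it gave 3 higher, where 7445 genes were called, and with a gene-length correction 2 higher, where 2840 of 18200 were. Against Col-0 it gave 0 to 19 with single libraries left out, the 19 in a fit where Col-0 is 1 library, assumed to vary like the other groups. The term gave 3 lower for gcn5-7 against Col-0, where 4.42% of all genes were called lower. For the interaction it gave 1 (PSAF, higher), where 3902 of 18322 genes were called higher. Without the libraries that stood apart, when Col-0 is 1 library, the members' median in the interaction was -0.27. The cause of these moves was not tested. Splitting the replicates of B and leaving out the 3 libraries of A were chosen after seeing the data. The term of A marks those same 3 libraries, and the term of B marks that same split. Neither grouping is given by the labels.

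With a replicate block, the comparisons of the triple mutant in B, taken as paired, had 36 members called against gcn5-7, 1 against Col-0 and 1 against nrp1-1 nrp2-2. The block changed no other member's call in the comparisons taken as paired. In comparisons not taken as paired, the block gave 42 lower for gcn5-7 against Col-0 of B, where 4639 of 19507 genes were called lower. It gave 15 lower for the double mutant against arp6-1 in A, where 3956 of 18322 genes were called lower.

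Depth did not limit the members. Col-0 had 2 libraries in A, and strand handling and the sharing of reads among LHCB1 copies are not known.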
